A study of Mus musculus with 6 samples.

Results

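The 10 genes described here, of the p53 pathway and of the CDK inhibitor families, were followed through cultured cells of the mouse retinal pigment epithelium (RPE) and choroid. They were Trp53, Mdm2, Cdkn1a, Ccng1, Bax, Phlda3, Cdkn1b, Cdkn1c, Cdkn2a and Cdkn2b, and they were taken by name as 10 of the 52636 genes counted, with all 10 measured. The cells were dissociated from the RPE and choroid of male C57BL/6J mice aged 12 to 16 months, cultured, and profiled by single-cell RNA sequencing with 10x Genomics 3′ v2 chemistry, which counts molecules at the 3′ end of transcripts by unique molecular identifiers (UMIs). Controls were 3 samples of Dram2 wt/wt mice, with both copies of Dram2 intact, and they were compared with 3 samples of Dram2 ko/ko mice, which lack exon 4 of Dram2 (DNA-damage regulated autophagy modulator 2) through a constitutive allele made with CRISPR/Cas9. Dram2 ko/ko replicate 3 was the only sample of batch 2 in the labels.

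Trp53 encodes p53, a transcription factor that damaged or stressed cells stabilise, and Mdm2 encodes the ubiquitin ligase that marks p53 for degradation and is itself switched on by p53. Among the p53 targets, Cdkn1a encodes p21, an inhibitor of cyclin-dependent kinases (CDKs) that holds cells before S phase, Ccng1 encodes cyclin G1, Bax encodes a protein that permeabilises mitochondria in apoptosis, and Phlda3 encodes an inhibitor of Akt signalling. Cdkn1b (p27) and Cdkn1c (p57, an imprinted gene) are the other CIP/KIP inhibitors. Cdkn2a encodes p16Ink4a, an INK4 inhibitor of CDK4 and CDK6, and also p19Arf, which is not an INK4 inhibitor. Cdkn2b encodes the INK4 inhibitor p15Ink4b. Products of both genes are known to accumulate in cultured and aging fibroblasts.

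Promoters are shown for Cdkn1a, Mdm2, Ccng1 and Bax, which carry a p53 consensus decamer there, and for Cdkn2a, which carries an E2F motif. That of Trp53, the other of the 5 members with a decamer, is not printed. RefSeq promoters of GRCm38.p6 (250 bases before the start site and 50 after it) were found for 9 of the 10 genes, all but Cdkn1c. The p53 consensus decamer, searched by name on both strands, which it matches alike, was found in the promoters of Cdkn1a, Mdm2, Ccng1, Bax and Trp53, in 5 of the 11 promoters listed for these 9 genes and in 8.36% of all 32851 promoters. In Cdkn1a alone among the members, 2 decamers lay within 13 bases of each other, from -73 to -42 relative to the start site of its upstream promoter. Such a pair was found in 24 of the 32851 promoters (0.0731%). The downstream promoter of Cdkn1a, at chr17:29093519-29093818, held no decamer and is not printed. An E2F motif (TTTCCCGC or TTTGGCGC, on either strand) was found in the upstream promoter of Cdkn2a, the one in front of the p19Arf exon, from -99 to -92, and in 1.56% of all promoters. A match is a match of letters only. In the 5 promoters printed here in the 5′ to 3′ direction of the gene, capitals mark the p53 decamer or, in Cdkn2a, the E2F motif; they lie at chr17:29090729-29091028 on the plus strand for Cdkn1a and on the minus strand at chr10:117710709-117711008 for Mdm2, chr11:40755237-40755536 for Ccng1, chr7:45466849-45467148 for Bax and chr4:89294570-89294869 for Cdkn2a.
Cdkn1a: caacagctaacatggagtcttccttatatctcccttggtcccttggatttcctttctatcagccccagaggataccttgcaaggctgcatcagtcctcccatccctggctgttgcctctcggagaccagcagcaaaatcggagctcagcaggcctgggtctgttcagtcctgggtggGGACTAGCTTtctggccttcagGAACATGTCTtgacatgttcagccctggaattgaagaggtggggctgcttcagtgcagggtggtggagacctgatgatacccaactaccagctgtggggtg
Mdm2: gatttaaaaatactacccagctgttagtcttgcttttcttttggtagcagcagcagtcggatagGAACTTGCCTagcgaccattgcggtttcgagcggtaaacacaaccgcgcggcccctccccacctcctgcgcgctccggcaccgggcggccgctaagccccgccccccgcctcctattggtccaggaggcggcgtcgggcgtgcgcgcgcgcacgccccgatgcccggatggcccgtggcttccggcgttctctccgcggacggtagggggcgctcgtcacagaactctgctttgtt
Ccng1: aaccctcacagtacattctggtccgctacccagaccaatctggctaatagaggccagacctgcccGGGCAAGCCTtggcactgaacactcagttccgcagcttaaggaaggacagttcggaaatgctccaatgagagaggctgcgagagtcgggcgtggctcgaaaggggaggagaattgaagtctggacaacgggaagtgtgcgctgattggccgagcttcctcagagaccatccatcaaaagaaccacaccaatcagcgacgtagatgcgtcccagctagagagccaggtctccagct
Bax: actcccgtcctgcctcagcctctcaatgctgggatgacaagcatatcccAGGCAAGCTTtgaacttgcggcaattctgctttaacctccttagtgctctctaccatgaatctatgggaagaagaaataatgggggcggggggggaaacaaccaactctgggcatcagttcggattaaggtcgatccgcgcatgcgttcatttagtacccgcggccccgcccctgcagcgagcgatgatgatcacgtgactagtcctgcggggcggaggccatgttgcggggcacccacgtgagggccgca
Cdkn2a: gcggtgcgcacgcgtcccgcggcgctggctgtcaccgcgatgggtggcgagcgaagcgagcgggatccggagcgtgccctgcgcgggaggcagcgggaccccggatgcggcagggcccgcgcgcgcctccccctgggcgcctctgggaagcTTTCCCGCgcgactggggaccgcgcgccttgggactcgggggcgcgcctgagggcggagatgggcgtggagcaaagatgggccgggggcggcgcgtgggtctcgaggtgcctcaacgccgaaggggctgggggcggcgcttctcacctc

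In all, 25428 cells were counted, with 2140 to 6648 cells and 96808998 to 122746184 UMIs per sample. The deposited annotation named 8 cell types, from Fibroblast with 12651 cells to Myeloid with 84 cells. Median depth per cell ran from 4825 UMIs (Fibroblast-like) to 26108 UMIs (Fibroblast). Levels are given in CPM, the UMIs of a gene divided by the UMIs of all genes over the cells of a type in a sample and put on the usual CPM scale, with the SD over samples; they are not scaled by transcript length, so levels of different genes are not compared. Fibroblast-like cells were of mixed quality: of 1121 cells, 168 lay in sub-cluster 8, with 91.1% mitochondrial counts in its median cell, and 168 in sub-cluster 6, with 21%. Types with fewer than 10 cells in a sample were left out, which removed replicate 1 of each genotype from the Myeloid type. The names held against their markers for Endothelial and Myeloid cells. Of 4 proliferation markers Top2a, Cdk1 and Ccnb1 were highest in Fibroblast proliferating cells, while Mki67 had its highest mean in the cells named Pericyte (130.3 CPM, against 101 CPM in Fibroblast proliferating). Of 6 RPE markers Krt18, Otx2 (87.4 CPM), Rlbp1 and Rpe65 were highest in RPE cells, although Rpe65, a defining gene of mature RPE, was only at 0.693 CPM, and Mitf (8.92 CPM) and Best1 (0.196 CPM) had higher means in Myeloid and Fibroblast 2 cells. The fibroblast markers Mgp, Dcn and Pdgfra were highest in fibroblast types, whereas Col1a1 (1729 CPM) and Col1a2 (3682 CPM) were highest in the cells named Pericyte. The cells named Pericyte went against their name in 5 of 6 pericyte markers. Kcnj8, Higd1b and Ndufa4l2 had no UMI there, and Rgs5 (7.79 CPM) and Pdgfrb (29.4 CPM) lay below their means in Fibroblast cells (67.1 and 86.7 CPM), whereas Cspg4 was highest there (199 CPM). The Schwann cell markers Ngfr (407 CPM) and Sox10 (179 CPM) were highest there too, so the name is used only as the annotation gives it. Dram2 lies outside this check of the labels, since the 3′ end that the library reads is not part of the deleted exon; its whole-sample level was 33.4, 39.6 and 38.1 CPM in Dram2 wt/wt and 30.7, 28.3 and 30.1 CPM in Dram2 ko/ko.

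Counts of 3 members carry some uncertainty. Over the 400 bases at the 3′ end of its transcripts, read as overlapping stretches of 31 bases, Bax shared 17.1% with other genes, most of them with the overlapping gene model Gm45808 on the same strand, Cdkn1c shared 11.3% with Gm44732, and Trp53 shared 4.95% with its pseudogene Trp53-ps. Stretches were pooled over all transcripts of a gene. Gm45808 overlaps Bax at the 5′ end of Bax (chr7:45465984-45466898), and which Bax transcripts share stretches with it was not tested. Gm45808 itself stood at 15.5, 10.1 and 13.1 CPM in Dram2 wt/wt and 3.56, 3.42 and 2.70 CPM in Dram2 ko/ko, against 887 CPM or more of Bax in every sample. The p16Ink4a and p19Arf transcripts of Cdkn2a end in the same exon and were counted together. Over whole samples, fewer cells of a type and less RNA per cell cannot be told apart.

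Differences between cell types are given as descriptions without a test, since the types were made by clustering these cells on these genes. Trp53 varied little. Its mean over samples was highest in Endothelial cells (236 ± 20.6 CPM) and Fibroblast proliferating cells (217 ± 11.3 CPM), whose ranges overlapped, and 162 ± 8.71 CPM in Fibroblast cells. The lowest mean was in the 4 Myeloid samples (128 ± 34.4 CPM), which overlapped Fibroblast cells. Mdm2 had its highest mean in Fibroblast 2 cells (867 ± 52.5 CPM, n = 6), where every sample exceeded every Fibroblast sample (732 ± 42.9 CPM), and the cells named Pericyte (279 ± 49.1 CPM) and Fibroblast-like cells (203 ± 37.1 CPM) lay below all other types. In RPE cells it spread widely, at 1047, 475 and 673 CPM in Dram2 wt/wt and 610.3, 818 and 379 CPM in Dram2 ko/ko, and the 2 lowest of these values belonged to the samples with the most RPE cells, Dram2 wt/wt replicate 2 with 539 and Dram2 ko/ko replicate 3 with 575. These 2 samples also held the most cycling RPE cells, by the split used below (2 or more UMIs of Mki67 and Top2a after thinning to 8000 UMIs). They had 93 such cells beside 190 with none and 200 beside 229. Dram2 wt/wt replicate 3, with the next most, had 14 beside 100. The part of cell number or of cycling cells in this spread was not tested.

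Cdkn1a, the p21 gene, showed the widest ordering of the p53 targets. Endothelial cells held 2767, 1691 and 2154 CPM in Dram2 wt/wt and 2106, 2885 and 2233 CPM in Dram2 ko/ko. Every one of these exceeded every other sum of a type in a sample. Fibroblast 2 came next (1522 ± 107 CPM), again above all Fibroblast samples (1090.3 ± 111 CPM), and from Fibroblast down to Fibroblast-like (387 ± 93.0 CPM) each type overlapped its neighbour. Bax had its highest mean in Endothelial cells too (1457 ± 195 CPM), overlapping Fibroblast 2 (1203 ± 92.7 CPM), and its lowest in RPE cells (606 ± 60.7 CPM). Phlda3 had its highest mean in Fibroblast 2 cells (825 ± 44.7 CPM), which overlapped Endothelial cells (756 ± 76.3 CPM) but not Fibroblast cells (555 ± 30.02 CPM). Ccng1 went the other way in the endothelium: Endothelial cells (388 ± 64.1 CPM) and the cells named Pericyte (309.9 ± 44.2 CPM) lay below all samples of the other 6 types, whose means ran from 572 CPM in Fibroblast proliferating cells to 697 CPM in Fibroblast-like cells.

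Among the CIP/KIP inhibitors, Cdkn1b was low throughout, from 6.66 ± 3.76 CPM in Fibroblast-like cells (2.91 ± 0.824 CPM when cells with fewer than 500 genes or more than 20% mitochondrial counts were left out) to 34.1 ± 13.6 CPM in the cells named Pericyte, and each type overlapped the next. Between Fibroblast (12.7 ± 1.14 CPM) and Fibroblast proliferating cells (22.4 ± 2.97 CPM) the samples did not overlap. Cdkn1c had its highest mean in Fibroblast 2 cells (57.6 ± 8.24 CPM), above every Fibroblast sample (36.2 ± 4.02 CPM) but overlapping single samples of Endothelial (up to 118 CPM), Myeloid (up to 85.1 CPM) and Fibroblast-like cells (up to 62.4 CPM), and it was nearly absent from the cells named Pericyte (2.54 ± 3.15 CPM). No UMI was counted there in 2 samples, where 3 counts would have given 4.35 CPM in Dram2 wt/wt replicate 3 and 6.81 CPM in Dram2 ko/ko replicate 1. After cells with 8000 UMIs or more were thinned to 8000, 1.57% of those named Pericyte held a Cdkn1c UMI (4.22% of all cells so named before thinning). That share equalled the 1.57% with a UMI of Lyz2, a myeloid gene, and is read as background. Background here means a share no higher than that of Lyz2, whose source in these cells was not tested. By this measure Cdkn1b was at background in Fibroblast-like cells (1.05% of thinned cells, with Lyz2 at 3.66%).

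The INK4 genes marked a contrast inside the fibroblasts. Cdkn2a stood at 22.0, 18.9 and 15.4 CPM in the Fibroblast cells of Dram2 wt/wt and 12.4, 24.2 and 14.0 CPM in those of Dram2 ko/ko. In Fibroblast 2 cells it was at 2.22, 1.93 and 1.13 CPM and at 1.204, 1.87 and 0.907 CPM. Each Fibroblast 2 sample lay below every sample of Fibroblast, Fibroblast proliferating, Fibroblast-like, RPE and Myeloid cells and of the cells named Pericyte. Of thinned Fibroblast 2 cells, 1.24% held a Cdkn2a UMI (2.85% before thinning, median depth 18394 UMIs), under the 4.43% with a UMI of Lyz2, so the gene was at background there, against 9.76% of thinned Fibroblast cells (20.1% before thinning, median depth 26108 UMIs). Thinned Endothelial cells were at background as well (0.585%, with Lyz2 at 2.34%). Cdkn2b, the neighbouring gene on chromosome 4, also had its lowest mean in Fibroblast 2 cells (11.8 ± 1.16 CPM), below every Fibroblast sample (50.1 ± 10.1 CPM) and overlapping the cells named Pericyte (12.9 ± 5.93 CPM) and Fibroblast-like cells (15.4 ± 4.40 CPM), some of whose samples lay lower. Unlike Cdkn2a, it had its highest mean in Endothelial cells (59.3 ± 16.5 CPM), overlapping RPE cells (53.3 ± 7.24 CPM).

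**Figure D1:**
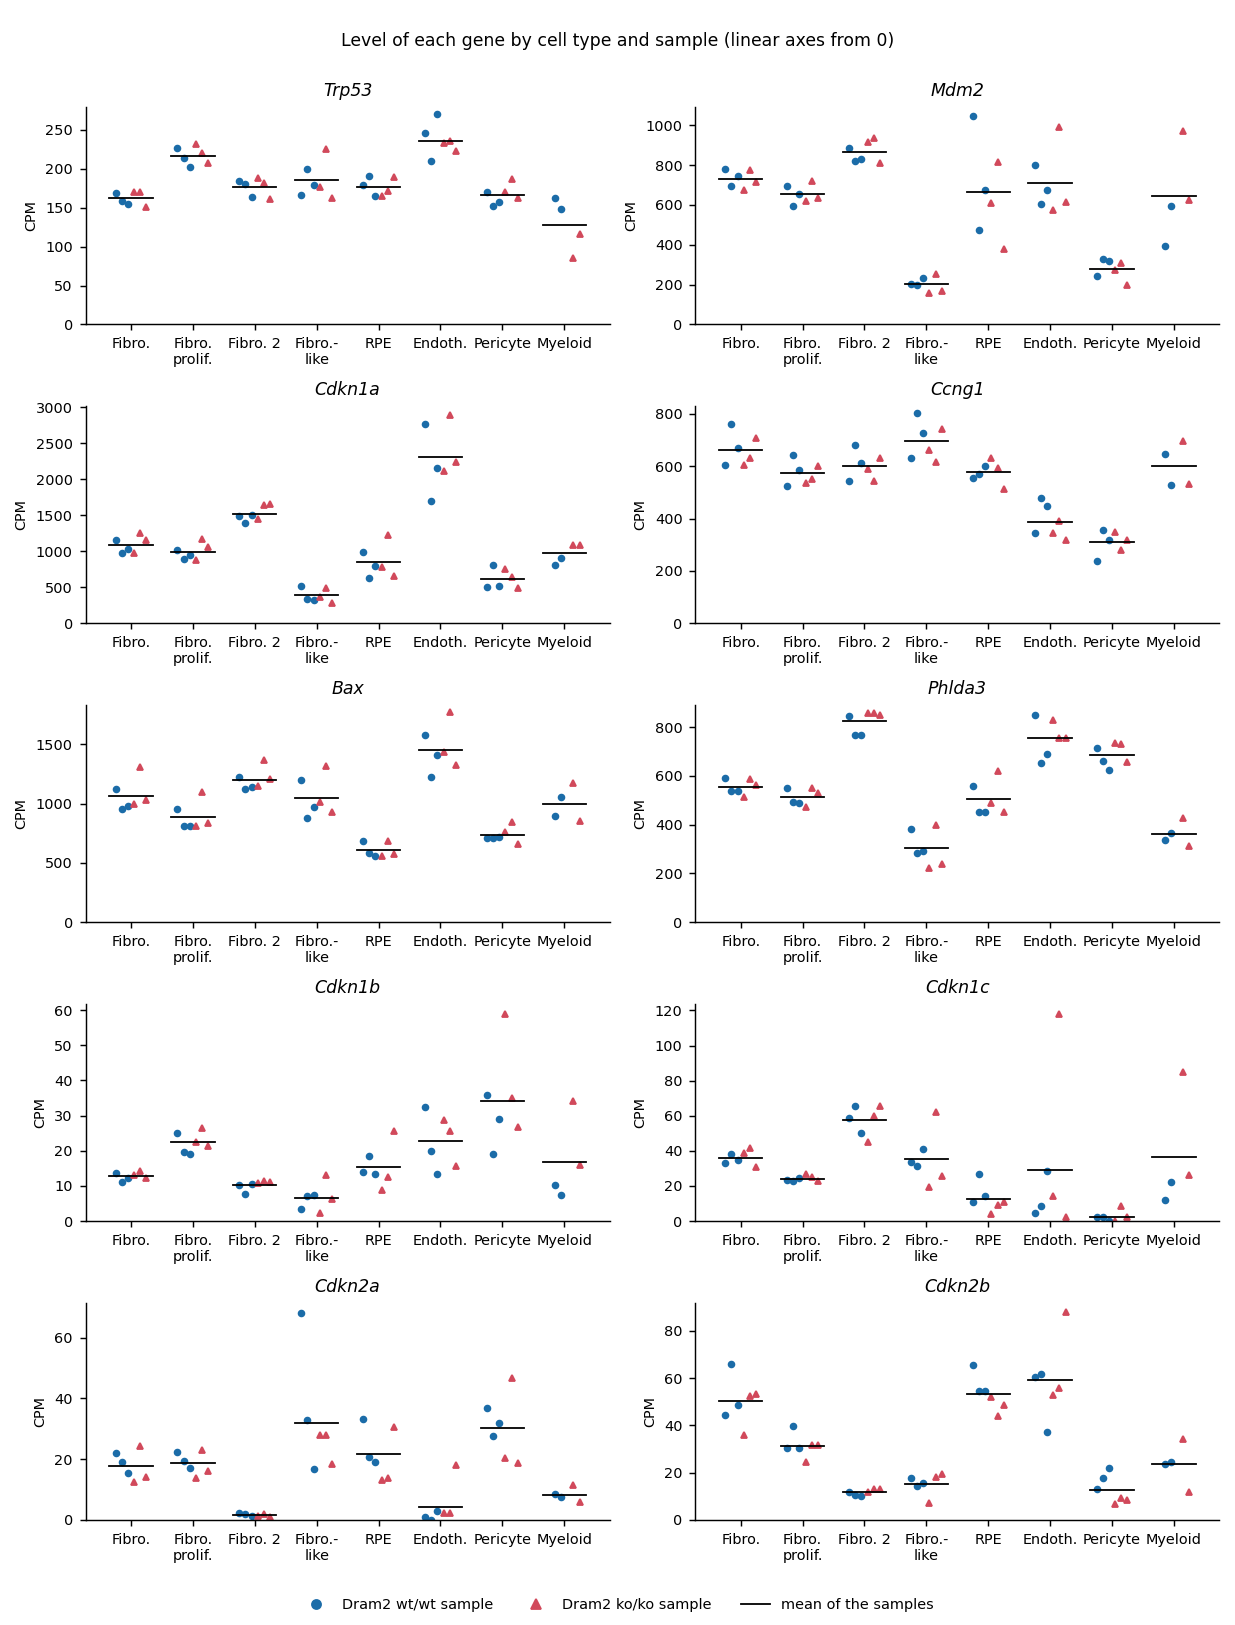
Level of each of the 10 genes (vertical axes, CPM, linear from 0) in the 8 cell types (horizontal axes), with circles for Dram2 wt/wt samples, triangles for Dram2 ko/ko samples and a line at the mean of the samples. Cdkn1a is highest in Endothelial cells (mean 2306 CPM), and Cdkn2a and Cdkn2b have their lowest means in Fibroblast 2 cells (1.54 and 11.8 CPM).

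Within each sample, Fibroblast 2 therefore differed from Fibroblast in both directions. On the log2(CPM + 1) scale, Cdkn2b was lower by a mean difference of -1.98 (SD 0.33, n = 6), with Cdkn1b (-0.29) and Ccng1 (-0.14) also lower in all 6 samples. Cdkn2a was lower in all 6 too, but it reached the filter of 10 CPM only through the Fibroblast cells and was at background in Fibroblast 2, so no size is given for its difference. Higher in all 6 were Cdkn1c (0.65), Phlda3 (0.57), Cdkn1a (0.48), Mdm2 (0.24), Bax (0.18) and Trp53 (0.12). Thus 6 of 10 members were higher and 4 lower in every sample, where 41.7% and 34.2% of the 9077 genes with 10 CPM or more were, so the counts stood near the background. Of 32 further p53 targets, 29 were at 10 CPM or more, with 8 higher and 12 lower in every sample (of the latter, Pidd1 reached 10 CPM only through the Fibroblast cells) and a median of 0.01 against 0.04 over all genes.

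Across all 46 sums of a type in a sample, the genes with a pattern most like Cdkn1a, by Pearson's r on log2(CPM + 1) among 8570 genes, were Rchy1 (0.94), Chic2 (0.94) and Akirin2 (0.93). For Cdkn1c they were Nup62cl (0.83), Ptgs2os (0.81) and Aldh1a2 (0.79), and for Cdkn2a they were Vim (0.83), Hspb6 (0.81) and Eif4e2 (0.81). The sums share 6 libraries and differ in depth, and these values describe likeness only.

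Cycling and other fibroblasts were compared next. Fibroblast proliferating cells held more Cdkn1b and Trp53 RNA than Fibroblast cells of the same sample and less of most other members. Trp53 was at 226, 214 and 203 CPM in the proliferating cells of Dram2 wt/wt and 232, 220.3 and 207 CPM in those of Dram2 ko/ko. The Fibroblast cells held 169, 159 and 155 CPM and 171, 170.4 and 151 CPM, all below the proliferating samples. The difference within samples was 0.42 (SD 0.034, log2(CPM + 1), n = 6) for Trp53 and 0.76 (SD 0.086) for Cdkn1b. Lower in all 6 samples were Cdkn2b (-0.65), Cdkn1c (-0.56), Bax (-0.26), Ccng1 (-0.21), Mdm2 (-0.16), Cdkn1a (-0.14) and Phlda3 (-0.11), and Cdkn2a was higher in 5 of 6 (0.076, SD 0.095). These are 2 members higher and 7 lower in every sample, beside 43% and 35.6% of 9159 genes, and they too are a description of clusters.

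The same question was tested on a split of cells by Mki67 and Top2a, 2 genes of cycling cells, with the members left out of the rule. Cells of the 4 fibroblast types with 8000 UMIs or more were thinned to 8000 UMIs. Then 4221 cells with 2 or more UMIs of the pair were compared with 14320 cells with none, within samples, by voom-limma over all genes. As in the splits below, cells with 1 UMI of the pair, here 1859, were left out. The split nearly repeated the annotation, since 4115 of the 4221 cells were named Fibroblast proliferating, while the 14320 held 10759 Fibroblast, 2519 Fibroblast 2, 895 Fibroblast proliferating and 147 Fibroblast-like cells. All 10 members passed the test, as 60.4% of the 14736 genes tested did. Of the members 3 were higher, beside 31.3% of genes called higher, and 7 were lower, beside 29.1% called lower. Nothing in the labels says that samples came from separate animals or cultures. In the splits, p-values measure how much the difference within a sample varied over these samples. For genotype in the whole sample or within a type, they measure the spread between these samples. Either spread may be technical.

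Cdkn1b, the p27 gene, moved most. The cycling side held 28.5, 20.8 and 20.5 CPM in Dram2 wt/wt and 23.5, 30.9 and 20.7 CPM in Dram2 ko/ko, and the other side held 12.45, 12.2 and 12.6 CPM and 13.5, 14.7 and 12.2 CPM. No sample of one side reached the other. By voom-limma, cycling cells were higher by 0.90 on the log2 scale (SE 0.072, adjusted p 5.39e-11). Trp53 rose by 0.32 on the log2 scale (SE 0.027, adjusted p 1.72e-10), from 169 ± 9.73 to 214 ± 9.02 CPM, again without overlap.

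The inhibitors Cdkn1c and Cdkn2b were lower on the cycling side. Cdkn1c stood at 22.8, 25.8, 26.1, 23.1, 23.7 and 22.3 CPM there in the order Dram2 wt/wt 1 to 3 and Dram2 ko/ko 1 to 3, and at 36.6, 38.4, 38.0, 40.3, 40.6 and 33.3 CPM among the other cells, with no overlap (log2 fold change -0.68, SE 0.059, adjusted p 3.22e-10). Cdkn2b averaged 29.9 ± 6.12 CPM against 42.8 ± 10.8 CPM, was lower in each of the 6 samples and overlapped between sides (log2 fold change -0.57, SE 0.063, adjusted p 2.53e-08). Cdkn2a went slightly upward, higher in 5 of 6 samples, at 0.20 on the log2 scale (SE 0.075, adjusted p 0.0266). That call was lost without Dram2 ko/ko replicate 3 (0.14, adjusted p 0.126) and without Dram2 wt/wt replicate 1 (0.18, adjusted p 0.0811). Among Fibroblast and Fibroblast proliferating cells alone, a choice made after the data were seen that leaves out the Fibroblast 2 cells, it was -0.04 (adjusted p 0.663), and with cells thinned to 4000 UMIs it was -0.0037 (adjusted p 0.981).

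The 5 p53 targets among the 10 genes fell by small amounts in this split. Log2 fold changes were -0.31 for Bax (SE 0.020, adjusted p 7.02e-13), -0.19 for Ccng1 (SE 0.021, adjusted p 2.86e-08), -0.19 for Phlda3 (SE 0.023, adjusted p 1.53e-07), -0.17 for Cdkn1a (SE 0.019, adjusted p 2.43e-08) and -0.10 for Mdm2 (SE 0.020, adjusted p 8.89e-05). Every one of them was lower on the cycling side in 6 of 6 samples. Over the 4 types Cdkn1a, for example, averaged 1034 ± 112 CPM on the cycling side and 1152 ± 117 CPM among the other cells. Among Fibroblast and Fibroblast proliferating cells alone, without the Fibroblast 2 cells, all 5 were still called lower by voom-limma, but the values shrank to -0.054 for Cdkn1a (adjusted p 0.00219), -0.057 for Phlda3 (adjusted p 0.00640) and -0.059 for Mdm2 (adjusted p 0.0105), while Bax (-0.27) and Ccng1 (-0.21) changed less.

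Within the Fibroblast proliferating type 4 of these 5 targets, Cdkn1a, Mdm2, Phlda3 and Ccng1, were higher in cells with more Mki67 and Top2a. Bax did not pass the test. This comparison was added after the data were seen: 4115 cells of the type with 2 or more UMIs of Mki67 and Top2a were set against its 895 cells with no UMI of either after thinning to 8000 UMIs. Both sides were named Fibroblast proliferating, so the split cannot be read as cycling against other cells. Cdkn1a stood at 1054, 923 and 997 CPM in the Dram2 wt/wt cells with 2 or more UMIs and 935, 1218 and 1100.2 CPM in those of Dram2 ko/ko. The other side held 693, 603, 683, 565, 806 and 709 CPM in the same order. The sides did not overlap. By voom-limma the difference was 0.57 on the log2 scale (SE 0.029, adjusted p 3.29e-21). Mdm2 followed at 691, 620.5, 645, 641, 743 and 666 CPM against 471, 388, 362, 453, 469 and 439 CPM, also without overlap (log2 fold change 0.61, SE 0.035, adjusted p 8.16e-19).

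In that comparison 5 of 10 members were called, beside 20% of 10961 genes. All 5 were higher, beside 7.96% of genes called higher, and none lower, beside 12% called lower. The other 3 were Cdkn1b (0.53, SE 0.14, adjusted p 0.00417), Phlda3 (0.24, SE 0.036, adjusted p 1.49e-06) and Ccng1 (0.11, SE 0.032, adjusted p 0.0145), the last of which lost its call without Dram2 wt/wt replicate 1 (adjusted p 0.0596). Trp53 was at -0.05 (SE 0.047, adjusted p 0.511), Bax at -0.0034 (SE 0.027, adjusted p 0.952), Cdkn1c at 0.09 (SE 0.13, adjusted p 0.683), Cdkn2a at 0.0052 (SE 0.15, adjusted p 0.987) and Cdkn2b at -0.22 (SE 0.11, adjusted p 0.155), all 5 short of the threshold, although Cdkn2b was called lower without Dram2 wt/wt replicate 2 (-0.35, adjusted p 0.0370). The 895 proliferating cells with no UMI of Mki67 and Top2a after thinning averaged 676 ± 84.8 CPM of Cdkn1a and 430.2 ± 45.4 CPM of Mdm2. Depth moved with this split, with a median of 27916 UMIs before thinning in cells with 2 or more UMIs of the pair and 23043 UMIs in the others. Its part after thinning was not tested.

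**Figure D2:**
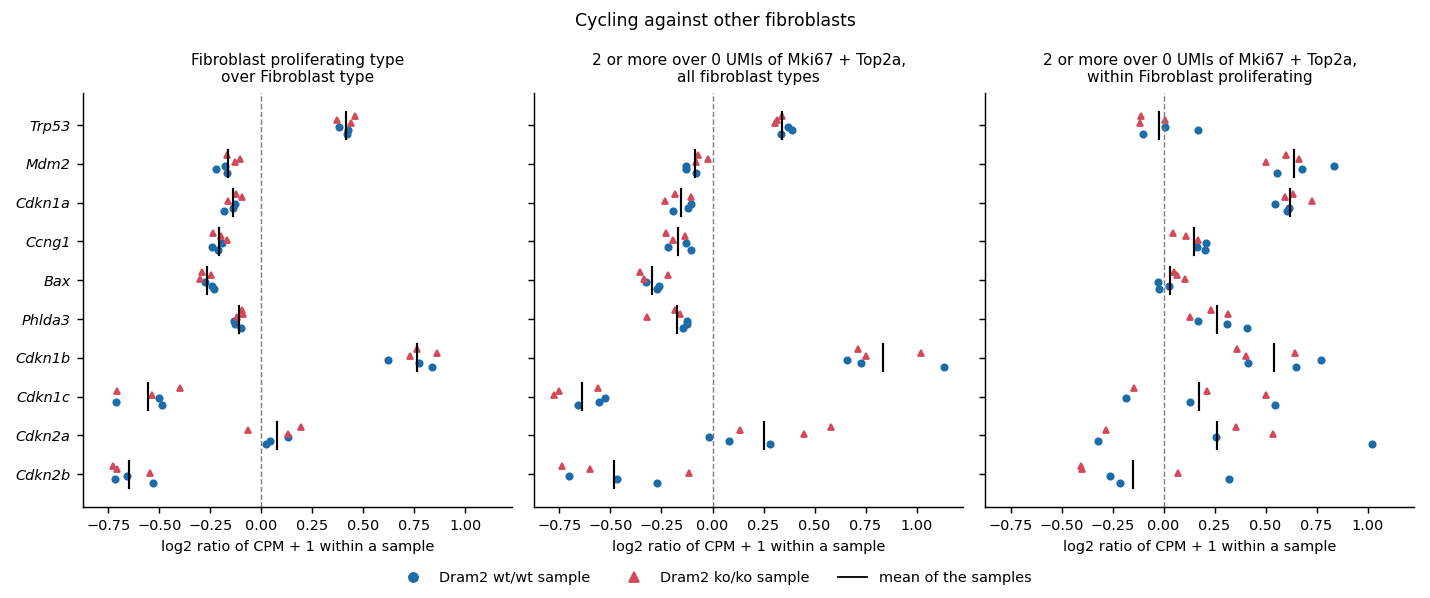
Log2 ratio of CPM + 1 within each sample (horizontal axes) for the 10 genes, in 3 panels for the Fibroblast proliferating over the Fibroblast type, for cells with 2 or more over 0 UMIs of Mki67 and Top2a in all fibroblast types, and for the same split within Fibroblast proliferating cells; circles are Dram2 wt/wt samples, triangles Dram2 ko/ko samples and lines the means. Mdm2, Cdkn1a, Ccng1 and Phlda3 lie below 0 in all 6 samples of the first and second panels and above 0 in all 6 of the last.

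Other genes of the pathway, from lists chosen with earlier results of these data known, were read in the same fibroblast splits. Of 32 further p53 targets, 9 were higher and 10 lower over the 4 types, near the 31.3% and 29.1% of all genes tested (median -0.02 against 0.0045 for all genes), where Gdf15 (1.60), Gtse1 (1.42), Pidd1 (0.72), Ppm1d (0.54) and Eda2r (0.28) rose and Xpc (-0.91), Perp (-0.75), Ddit4 (-0.65), Trp53cor1 (-0.60) and Plk3 (-0.51) fell. Gtse1 encodes a protein made in G2 that restrains p53. Within the proliferating type 15 of 29 tested targets were higher and 2 lower, beside 7.96% and 12% of all genes (median 0.35 against -0.04 for all genes). Gtse1 (1.10), Pidd1 (1.01), Gdf15 (0.92), Fas (0.73) and Eda2r (0.61) rose most there, and Plk2 (-0.26) and Rps27l (-0.06) fell.

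Over the 4 types 8 of 11 tested p53 regulators and relatives rose and 2 fell, beside the same 31.3% and 29.1% of all genes. Those that rose were led by the checkpoint kinase gene Chek1 (2.77), Atm (1.13), Wrap53 (1.06), Chek2 (0.75) and Atr (0.67), and those that fell were Rchy1 (-0.39) and Trp53bp1 (-0.25). All 3 genes listed as other CDK inhibitors rose, Cdkn3 (2.70), Cdkn2c (1.98) and Cdkn2d (1.43). Cdkn1b rose as well, in contrast with Cdkn1c and Cdkn2b. Of 12 G1 cyclins, CDKs and pocket proteins 9 rose, with Ccne2 (3.27), Rbl1 (2.57), Ccne1 (2.19), Cdk2 (1.58) and E2f1 (1.27) first, and only the cyclin D2 gene Ccnd2 (-0.33) fell. Among 8 BCL2 family genes tested, 4 rose (Bok 1.17, Bcl2l11 0.56, Bcl2 0.39, Mcl1 0.08) and 4 fell (Bid -0.50, Bad -0.35, Bcl2l1 -0.27, Bak1 -0.11). Within the proliferating type fewer of these were called: 3 of 11 regulators were higher and none lower, 3 of 12 G1 genes higher and 2 lower, and none of 8 BCL2 family genes higher and 2 lower, beside 7.96% of genes called higher and 12% called lower. Cdkn2c (1.66) and Cdkn2d (1.33) rose there again while Cdkn3 fell (-0.38), and Ccnd1 (-0.43) and Ccnd2 (-0.20) fell while Rbl1 (1.56), Cdk2 (0.60) and Rb1 (0.52) rose. The regulators that rose were Chek1 (0.50), Atm (0.48) and Wrap53 (0.35), and the BCL2 family genes that fell were Bid (-0.42) and Bak1 (-0.20). All of these are log2 fold changes that passed voom-limma's adjusted threshold of 0.05.

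RPE cells, which the annotation does not divide by cycling, gave the same directions for Trp53 and the lower inhibitors. Only 3 samples had enough cells, Dram2 wt/wt replicates 2 and 3 and Dram2 ko/ko replicate 3, with 307 cycling cells against 519. Called were 4 of 10 members, beside 19.3% of 9634 genes, with 1 higher beside 10% of genes called higher and 3 lower beside 9.26% called lower. Trp53 stood at 222, 268 and 212 CPM against 162.5, 140.0 and 142.5 CPM, without overlap (voom-limma log2 difference 0.46, SE 0.13, adjusted p 0.0128). Cdkn2b fell by 0.78 on the log2 scale (SE 0.20, adjusted p 0.00779), Cdkn1c by 1.00 (SE 0.35, adjusted p 0.0466, with no UMI on the cycling side of Dram2 wt/wt replicate 3, which had 14 cells) and Ccng1 by 0.33 (SE 0.095, adjusted p 0.0158). Cdkn1b was at 0.33 (adjusted p 0.366), Cdkn1a at -0.07 (adjusted p 0.690), Mdm2 at -0.24 (adjusted p 0.211), Phlda3 at -0.10 (adjusted p 0.628) and Cdkn2a at 0.46 (adjusted p 0.261). Bax, lower on the cycling side of the fibroblast split, was at 0.07 here (adjusted p 0.638) and higher in 3 of 3 samples. None of these 4 calls held when Dram2 wt/wt replicate 2 was left out (0 members called) or when Dram2 ko/ko replicate 3 was (1 other member called), and edgeR lost Cdkn1c (adjusted p 0.0549). In the lists, Cdkn3 (2.03), Cdkn2d (1.98) and Cdkn2c (1.47) rose as in fibroblasts. Gtse1 (1.58) and Pidd1 (1.195) were the 2 called higher of 28 tested p53 targets and Perp (-0.82) the 1 lower, and Chek1 (1.93) and Wrap53 (1.30) were called higher of 10 regulators. Bcl2 (0.79) and Bok (0.46) rose. Of 12 G1 genes 8 rose, Rbl1 (2.19), Ccne1 (1.499), Cdk2 (1.40), Ccne2 (1.16) and E2f1 (1.01) first, while Rbl2 (-1.39) and Ccnd2 (-0.61) fell.

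The fibroblasts are also divided into numbered sub-clusters in the deposited annotation, and sub-cluster 4, with 1558 cells of which 1543 were named Fibroblast, had high levels of the p53 targets. Mdm2 stood at 1589, 1152 and 1397 CPM there in Dram2 wt/wt and at 1377, 1519 and 1216 CPM in Dram2 ko/ko. In sub-cluster 1, the largest, it was at 721, 632 and 663 CPM and at 625, 736 and 661 CPM, all far below. Within samples, sub-cluster 4 exceeded sub-cluster 1 by 1.02 (SD 0.12, log2(CPM + 1), n = 6) for Mdm2, 0.56 (SD 0.057) for Cdkn1a, 0.45 for Bax (SD 0.055) and for Ccng1 (SD 0.069), 0.42 (SD 0.047) for Phlda3, 0.41 (SD 0.18) for Cdkn1b and 0.21 (SD 0.091) for Trp53. These 7 of 10 members were higher in all 6 samples and none was lower, beside 50.3% and 21.8% of 9173 genes. Cdkn2b was higher in 5 of 6 (0.49), Cdkn2a in 4 of 6 (0.13) and Cdkn1c in 3 of 6 (-0.08). High Cdkn1a and Phlda3 were not particular to sub-cluster 4. Fibroblast 2 cells had a like mean of Cdkn1a (1522 against 1519 CPM) and a higher mean of Phlda3 (825 against 722 CPM). Their means of Mdm2 (867 against 1375 CPM), Bax (1203 against 1407 CPM) and Ccng1 (600 against 879 CPM) were lower.

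Of the further p53 targets at 10 CPM or more, 21 of 29 were higher in sub-cluster 4 in all 6 samples and 3 were lower (Plk3, Plk2 and Tigar), beside the same 50.3% and 21.8% of all genes, with a median difference of 0.59 against 0.15 over all genes. The largest differences were in Trp53inp1 (1.47), Ddit4 (1.44), Fas (1.44), Btg2 (1.31) and Pidd1 (1.25). Of 9 p53 regulators 7 were higher and 1 lower, with Mdm4 (1.14), the Mdm2 relative, first. Of 9 G1 genes 3 were higher, among them the pocket protein genes Rb1 (1.46) and Rbl2, and 4 lower, led by Ccne1 (-1.15), a cyclin of S phase entry, and Cdk6 (-0.66). Cdkn2c was higher (1.29). Of 8 BCL2 family genes Bcl2l11 and Bad (0.51) were higher, and Bok (-1.23), Bcl2 (-0.54), Bid (-0.35) and Bak1 (-0.27) were lower; of these Bcl2 favours survival and the others promote cell death. Rbl2 and Bcl2l11 reached 10 CPM only through sub-cluster 4, so no size is given for them. Sub-cluster 4 had a median of 23388.5 UMIs and 3.69% mitochondrial counts per cell, against 27032 UMIs and 2.86% in sub-cluster 1, and the part of depth or mitochondrial counts in these differences was not tested. At the other end, sub-cluster 6, with 21% mitochondrial counts in its median cell, had the lowest means of Trp53 (70.2 CPM), Cdkn1a (304 CPM), Ccng1 (201 CPM), Bax (397 CPM) and Phlda3 (180.1 CPM) among sub-clusters 1 to 7.

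**Figure D3:**
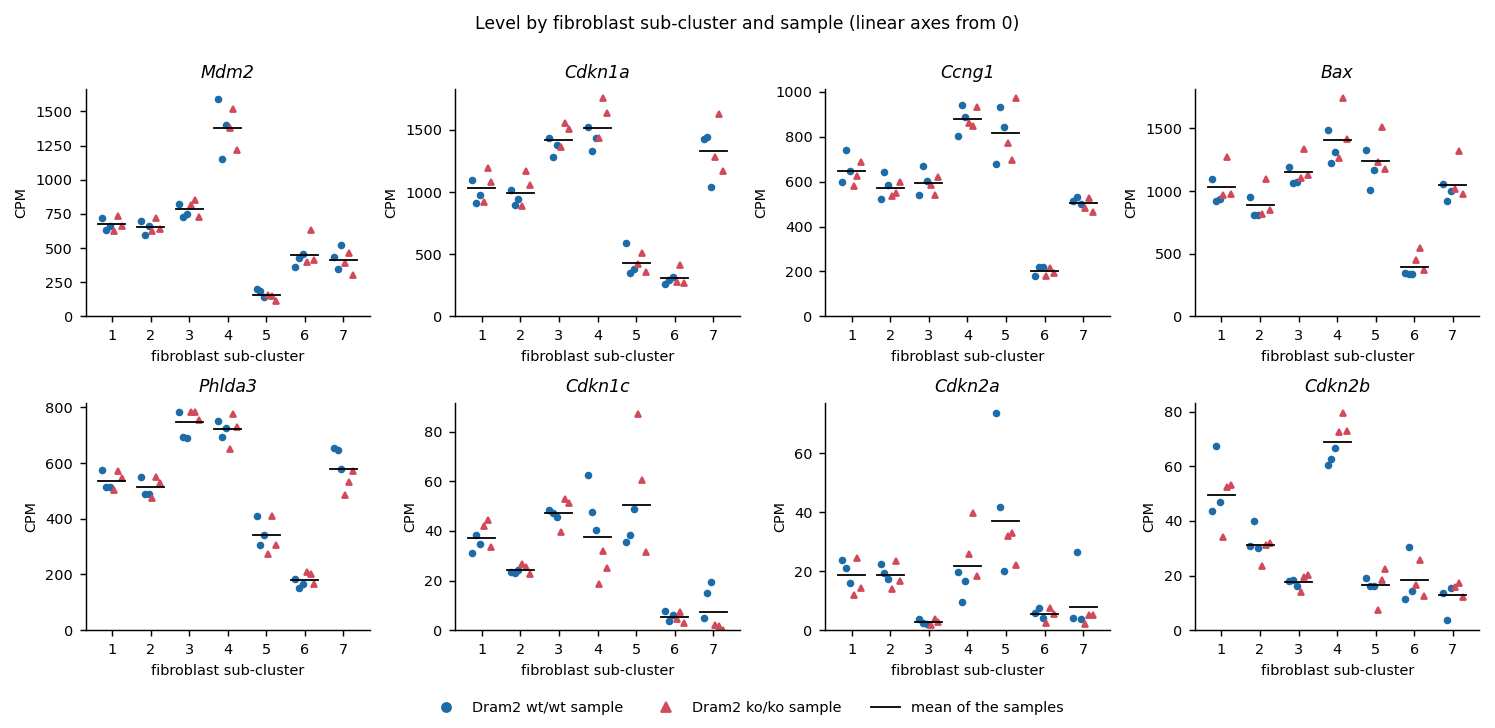
Level of 8 of the genes (vertical axes, CPM, linear from 0) in fibroblast sub-clusters 1 to 7, with circles for Dram2 wt/wt samples, triangles for Dram2 ko/ko samples and a line at the mean. Mdm2 is highest in sub-cluster 4 (mean 1375 CPM, against 673 CPM in sub-cluster 1), and Cdkn2a is lowest in sub-cluster 3 (2.73 CPM), which holds 2964 of the 3019 Fibroblast 2 cells.

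The comparison of genotypes asks whether loss of Dram2 moved these genes. Over whole samples it did not pass the test for any of them. Cdkn1a was at 1155, 937 and 1026 CPM in Dram2 wt/wt and 1008, 1274 and 1086 CPM in Dram2 ko/ko. Mdm2 was at 764, 646 and 717 CPM and at 682, 775 and 643 CPM. Cdkn2a was at 20.2, 18.3 and 15.1 CPM and at 11.4, 20.9 and 16.0 CPM. The genotypes overlapped for all 10 members, while 4.2% of all genes tested were higher in Dram2 ko/ko without overlap and 7.33% lower. By voom-limma 0 of 10 were called, beside 0% of 22580 genes, and none had an unadjusted p under 0.05. Neither edgeR nor DESeq2 called a member, beside 0 genes called by edgeR and 381 by DESeq2 of the same 22580. Log2 fold changes ran from -0.20 for Cdkn2b (SE 0.18, adjusted p 0.920) to 0.18 for Cdkn1b (SE 0.11, adjusted p 0.909), with 0.13 for Cdkn1a (SE 0.13, adjusted p 0.921) and 0.05 for Trp53 (SE 0.083, adjusted p 0.938). The 2 highest levels came from Dram2 wt/wt replicate 1 and, in the other genotype, replicate 2 for Mdm2, Cdkn1a, Bax, Phlda3 and Cdkn2a.

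By cell type the result was the same. No member was called in Fibroblast (0.00503% of 19886 genes called), Fibroblast proliferating (0.624% of 18113), Fibroblast 2 (0.222% of 14882), Fibroblast-like (0% of 7218), RPE (0% of 12333), Endothelial (0% of 6682), the cells named Pericyte (0.0118% of 8454) or Myeloid cells (0.0296% of 6747, 2 samples against 2), and edgeR called none in any of these. All 10 were tested in Fibroblast, Fibroblast proliferating, Fibroblast 2 and RPE cells. The filter on low counts removed Cdkn1b in Fibroblast-like cells, Cdkn1c and Cdkn2a in Endothelial cells, Cdkn1c in the cells named Pericyte, and Cdkn1b and Cdkn2a in Myeloid cells. In the 3 large fibroblast types no member had an unadjusted p under 0.05, and log2 fold changes lay between -0.43 (Cdkn2a in Fibroblast 2, where it was at background, SE 0.37, adjusted p 0.887) and 0.23 (Cdkn1b in Fibroblast 2, SE 0.16, adjusted p 0.887). Of the other p53 targets, regulators, CDK inhibitors, G1 and BCL2 family genes, none was called by voom-limma in the whole sample or any type. Among the 32 other p53 targets, 3 had an unadjusted p under 0.05 over whole samples, where 1583 of 22580 genes did, and 0 to 3 did in each of the 8 types (0 in Fibroblast, where 1427 of 19886 genes did, and 2 in Fibroblast proliferating cells, where 1229 of 18113 did). A test of whether the genotype effect differed between Fibroblast proliferating and Fibroblast cells called 0 of 10 members, beside 0.0101% of 19755 genes, with edgeR calling 0 as well and the lowest unadjusted p at 0.0891 for Mdm2 (difference 0.05, SE 0.029).

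Unadjusted p-values under 0.05 arose in 3 of the small types. In RPE cells Cdkn1c was at 10.9, 27.0 and 14.3 CPM in Dram2 wt/wt and 3.86, 9.29 and 10.9 CPM in Dram2 ko/ko, so that the groups met at 10.9 CPM (they did not cross over all cells and crossed under a filter of cells with at least 500 genes and at most 20% mitochondrial counts; voom-limma log2 difference -1.09, SE 0.42, p 0.0335, adjusted p 1.00). In the cells named Pericyte, Cdkn2b was at 13.2, 17.9 and 21.8 CPM and at 6.81, 9.22 and 8.26 CPM, without overlap (-0.88, SE 0.37, p 0.0370, adjusted p 0.819 by voom-limma). These levels rested on 69 UMIs over all samples, with 3 to 18 UMIs per sample. In Myeloid cells Mdm2 was at 396 and 597 CPM against 969.8 and 625 CPM (0.69, SE 0.28, p 0.0272, adjusted p 0.788 by voom-limma, n = 2 per genotype). None of these passed the correction. Genotypes were otherwise without overlap, among types with 6 samples, for Cdkn1b and Phlda3 in Fibroblast 2 (both higher in Dram2 ko/ko) and Cdkn2b in RPE cells (lower in Dram2 ko/ko). That made 2 of 10 members higher without overlap in Fibroblast 2, beside 4.81% of genes tested there, 2 of 10 lower in RPE cells with Cdkn1c (1 under the cell filter), beside 5.09%, and 1 of 10 lower in the cells named Pericyte, beside 5.68%.

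**Figure D4:**
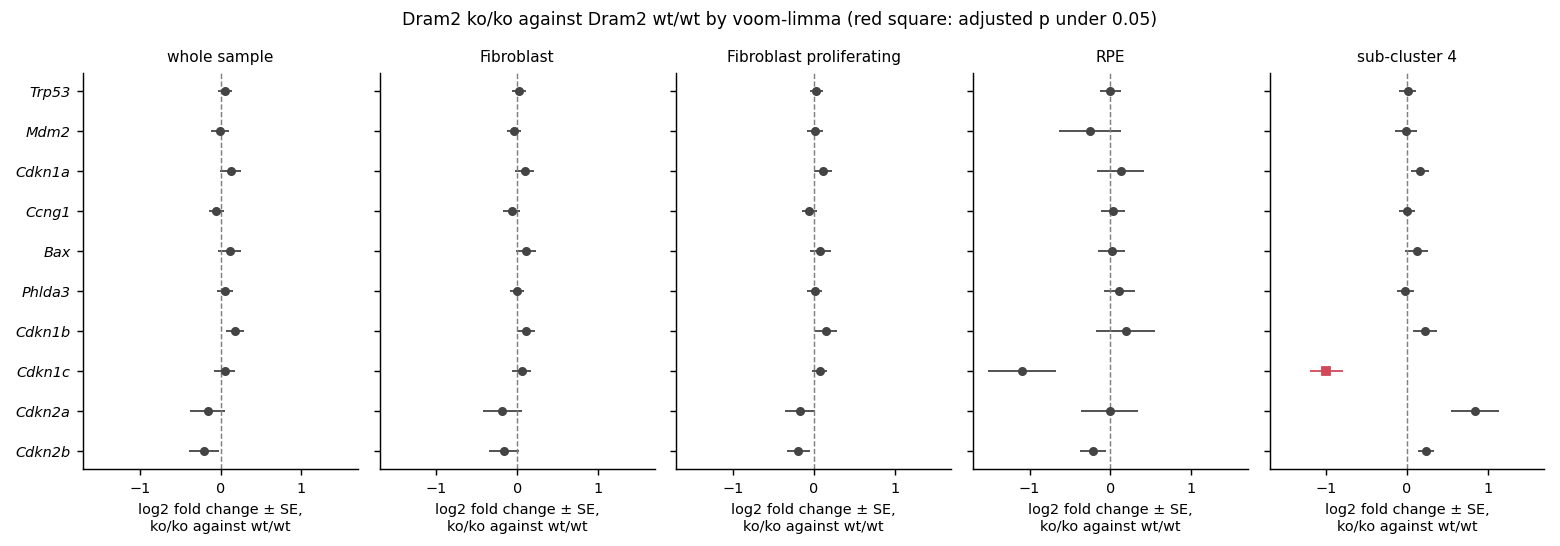
Log2 fold change of Dram2 ko/ko against Dram2 wt/wt by voom-limma (horizontal axes, points with bars of 1 SE) for the 10 genes, in panels for the whole sample, Fibroblast, Fibroblast proliferating and RPE cells and sub-cluster 4; a red square marks an adjusted p under 0.05. The first 3 panels stay between -0.20 and 0.18, and the lowest points are Cdkn1c in RPE cells (-1.09) and in sub-cluster 4 (-0.999, the one red square).

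Genotype was also tested within fibroblast sub-clusters 1 to 7, an addition made after the data were seen. Sub-cluster 4 gave the one call, Cdkn1c, 1 of 10 members beside 0.722% of 13711 genes. The level was 62.3, 47.6 and 40.4 CPM in Dram2 wt/wt (50.1 ± 11.2 CPM) and 18.5, 32.0 and 24.9 CPM in Dram2 ko/ko (25.1 ± 6.74 CPM). Every Dram2 ko/ko sample lay below every Dram2 wt/wt sample. By voom-limma the difference was -0.999 on the log2 scale (SE 0.20, adjusted p 0.0490), and the call did not hold: edgeR gave an adjusted p of 0.0545, and leaving out any 1 of the 6 samples gave -1.16 to -0.81 with adjusted p between 0.0577 and 0.131. In Fibroblast cells as a whole Cdkn1c was at 0.06 (SE 0.12, adjusted p 0.957). The INK4 genes of sub-cluster 4 were at 0.84 for Cdkn2a (SE 0.30, p 0.0162, adjusted p 0.472 by voom-limma) and 0.23 for Cdkn2b (SE 0.099, p 0.0371, adjusted p 0.702 by voom-limma). Cdkn2b in Dram2 ko/ko (72.4, 79.4 and 72.8 CPM) exceeded each Dram2 wt/wt sample (60.3, 62.7 and 66.7 CPM). In sub-cluster 4, 5.59% of genes tested were lower in Dram2 ko/ko without overlap and 5.54% were higher.

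No member was called in the other sub-clusters, by voom-limma or edgeR, where 0.32% (sub-cluster 1), 0.55% (sub-cluster 2), 0.00634% (sub-cluster 3), 0% (sub-clusters 5 and 6) and 0.389% (sub-cluster 7) of all genes tested were. Bax in sub-cluster 6 had an unadjusted p of 0.0434 (0.38, SE 0.18, adjusted p 1.00 by voom-limma), at 347, 335 and 336 CPM in Dram2 wt/wt and 451, 545 and 368 CPM in Dram2 ko/ko. Gm45808, the gene model that overlaps Bax, was itself called lower in Dram2 ko/ko in Fibroblast (-2.03, SE 0.18, adjusted p 0.0335 by voom-limma), Fibroblast proliferating (-1.92, SE 0.25, adjusted p 0.0297) and Fibroblast 2 cells (-2.14, SE 0.20, adjusted p 0.0125), while Bax was at 0.11 (SE 0.12), 0.08 (SE 0.13) and 0.11 (SE 0.11) there. With each sample left out Gm45808 stayed between -2.26 and -1.68, but the 3 calls were lost without Dram2 wt/wt replicate 3 (adjusted p 0.252, 0.143 and 0.0970) and without Dram2 ko/ko replicate 2 (adjusted p 0.235, 0.136 and 0.111). The call was also lost in Fibroblast proliferating cells without Dram2 wt/wt replicate 2 (adjusted p 0.166), in Fibroblast 2 cells without Dram2 wt/wt replicate 1 (adjusted p 0.0679), and with the replicate number as a block in Fibroblast (adjusted p 0.0695) and Fibroblast proliferating cells (adjusted p 0.0859). How reads were divided between the 2 genes was not tested.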

How the data were processed

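The authors aligned 10x Genomics reads to GRCm38 with Cell Ranger 3.1.0 and deposited a table of raw UMI counts per gene and cell, alongside labels for sample, cell type and sub-cluster; the annotation release was not given in the sources used here. The 10 genes and the pathway lists were chosen with earlier results of these data known. Symbols from GENCODE were matched to 52489 of 52636 gene IDs. Counts were summed per sample and cell type where 10 or more cells were present. Genotypes were compared by voom-limma (R 4.3.3, limma 3.58.1, edgeR 4.0.16) with edgeR's filterByExpr and TMM factors over all genes, and called at a Benjamini-Hochberg adjusted p under 0.05. For the cycling split, cells with 8000 UMIs or more (22027 cells, with 3401 left out) were thinned to 8000, Mki67 and Top2a were removed, and the sample was a factor in the fit. Ratios within samples were taken on log2(CPM + 1) for genes with a mean of 10 CPM or more in either group. All 10 genes were followed in each comparison; from each list, the genes called were named, up to 5 in each direction, with 3 most similar genes for Cdkn1a, Cdkn1c and Cdkn2a. Alternatives were edgeR's quasi-likelihood test, DESeq2 1.42.0, RLE size factors, no filter, a replicate block, batch as a covariate, other thresholds, a cell filter of 500 genes and 20% mitochondrial counts, and each sample left out. Batch 2 held Dram2 ko/ko replicate 3 alone, so the batch covariate takes up that sample and comes close to leaving it out. It is no separate correction for batch. Doublets were not called, and cells are numbered in the deposited table, so barcodes shared between libraries were not counted. Floors cover counting error only, while SDs were taken over samples and SEs came from the fits. The fits were tested on simulated data. Promoters are from RefSeq, GRCm38.p6; tables were handled in Python 3.11.15.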

Additional observations from a re-analysis of the deposited data

How the results depend on the processing

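No member was called for genotype in the whole sample or in any cell type under any of the 100 alternatives run there. In sub-cluster 4 the 1 call became 0 with edgeR and 0 to 0 with each sample left out. The split within the Fibroblast proliferating type is another comparison, since both of its sides hold cells of that type alone. In it 5 members were called. Signs were opposite to those of the fibroblast split for Mdm2 (0.61), Cdkn1a (0.57), Ccng1 (0.11) and Phlda3 (0.24), which were called. They were also opposite for Trp53 (-0.049) and Cdkn1c (0.092), which were not called. With each sample left out, the 10 calls of the fibroblast split became 9 to 10. Cdkn2a reversed there when thinned to 4000 UMIs (-0.0037) and among Fibroblast and Fibroblast proliferating cells alone (-0.040), and lost its call with no filter (0.13, adjusted p 0.193 by voom-limma). The 4 calls of the RPE split became 2 with no filter, 1 when thinned to 4000 UMIs, where only 2 of the 3 samples kept 10 cycling cells, and 0 to 3 with each sample left out. Within the proliferating type, Cdkn2a was -0.0019 with RLE size factors, and with each sample left out it ran from -0.16 to 0.23 and Bax from -0.0066 to 0.020. Over whole samples, Mdm2 for genotype was 0.0046 with RLE size factors, 0.0070 with DESeq2 and 0.064 with batch as a covariate. With each sample left out it ran from -0.11 to 0.065, Cdkn1c from -0.078 to 0.19, Cdkn2a from -0.39 to 0.058, Ccng1 from -0.13 to 0.00036, Bax from -0.043 to 0.21 and Phlda3 from -0.015 to 0.13. The causes were not tested. The cell filter moved the means in Fibroblast-like cells to 215 CPM for Trp53, 162 CPM for Mdm2, 823 CPM for Ccng1 and 1225 CPM for Bax; Cdkn1b there went from 6.66 to 2.91 CPM, within 1 SD. Replicate numbers did not pair the samples (correlations of 0.0987, -0.429 and 0.0280); with the replicate block 0 members were called. Over all genes the calls for genotype across alternatives ran from 0 to 381 in the whole sample, 0 to 321 in Fibroblast, 0 to 320 in Fibroblast proliferating, 0 to 121 in Fibroblast 2 and 28 to 168 in sub-cluster 4. Cdkn2a in Fibroblast 2 and Endothelial cells, Cdkn1c in the cells named Pericyte and Cdkn1b in Fibroblast-like cells were at background by the share of Lyz2. No difference between genotypes could be read there at this depth.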
